A study of Homo sapiens with 9 samples.

Results

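The genes of oxidative phosphorylation were taken by symbol: those that begin with MT- for the mitochondrial genome, and those that begin with NDUF, SDHA, SDHB, SDHC, SDHD, UQCR, COX or ATP5 for the nuclear genome. Of the 12854 genes listed in both count tables, 115 met this rule, 13 encoded in mitochondria and 102 in the nucleus. All of them are protein-coding genes, so ribosomal and transfer RNAs of mitochondria were not analysed here. By complex, the nuclear members were 45 genes of complex I, 8 of complex II, 9 of complex III, 22 of complex IV and 18 of complex V, and 22 of the 102 encode assembly factors in place of subunits.

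Oxidative phosphorylation passes electrons from NADH and succinate to oxygen through complexes I to IV of the inner mitochondrial membrane, and the proton gradient this builds drives ATP synthesis by complex V. Complexes I, III, IV and V are mosaics of subunits from the mitochondrial genome and subunits imported from the cytosol, whereas complex II is encoded by nuclear genes alone. Hepatocytes are rich in mitochondria, and hepatoma cells use both respiration and glycolysis.

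HepG2 is an established human hepatoma cell line, and it was cultured in low-glucose medium. The sh-Con cells carried a control short hairpin RNA, and the sh1-TUG1 and sh2-TUG1 cells carried 1 of 2 hairpins against TUG1, a long non-coding RNA. All hairpins were expressed from the lentiviral vector Tet-pLKO-Puro, which doxycycline induces. The study's account of the RNA-seq does not state whether the sequenced cells, sh-Con included, were given doxycycline, or for how long. Each group was 1 stable cell line, so that hairpin and cell line cannot be told apart. RNA-seq was done in 3 replicates a group, which the study calls technical, and p-values then measure only the spread between such libraries. TUG1 itself was not analysed here, so the knockdown was not checked. Over the shared genes, the 9 libraries held 33049003 to 39387125 counts, and since the 3 sh-Con libraries had identical counts in each table, the 2 comparisons share their controls. The 8 hepatocyte and hepatoma markers on the list were all present and summed to 32619 to 34395 CPM (counts scaled to a common library size) in sh-Con, 39748 to 41252 in sh1-TUG1 and 43507 to 45633 in sh2-TUG1. None of the 5 fibroblast markers was listed, the 2 listed endothelial markers of 4 (PECAM1 and VWF) summed to at most 13.6 CPM in any library, and of the 4 blood markers only CD68 was listed, with 59.2 to 71.8 CPM in sh-Con, 33.7 to 37.4 in sh1-TUG1 and 17.6 to 24.0 in sh2-TUG1.

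The first question was how the 2 genomes shared the reads. Transcripts of the mitochondrial genome took a smaller share of the counts in both knockdown lines than in the control, and no knockdown library reached the lowest control library. The 13 mitochondrial genes took 2.67%, 2.14% and 1.99% of the counts in the sh-Con libraries, 1.72%, 1.63% and 1.55% in sh1-TUG1, and 1.56%, 1.57% and 1.80% in sh2-TUG1. The means were 2.27% ± 0.356 (SD, n = 3) in sh-Con, but 1.63% ± 0.0846 with hairpin sh1 and 1.65% ± 0.134 with sh2. The nuclear members did not follow in sh1-TUG1, and in sh2-TUG1 their share overlapped with that of the control. Their share was 0.635%, 0.663% and 0.664% in sh-Con, 0.713%, 0.720% and 0.723% in sh1-TUG1, and 0.637%, 0.638% and 0.604% in sh2-TUG1, which puts every sh1-TUG1 library above the control and 2 sh2-TUG1 libraries within it. The counts of the 13 mitochondrial genes were 3.48 ± 0.638 times those of the 102 nuclear genes in sh-Con, 2.27 ± 0.134 times in sh1-TUG1 and 2.64 ± 0.302 times in sh2-TUG1. No test was run on these sums. Replicate 1 of sh-Con stood above the other 2 control libraries, and replicate 3 of sh2-TUG1 above the other 2 of its group, in the mitochondrial share, so the mitochondrial changes against the control are also given below without each of these libraries. Since RNA was taken from whole cultures, fewer cells of a type and less RNA per cell cannot be told apart.

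**Figure D1:**
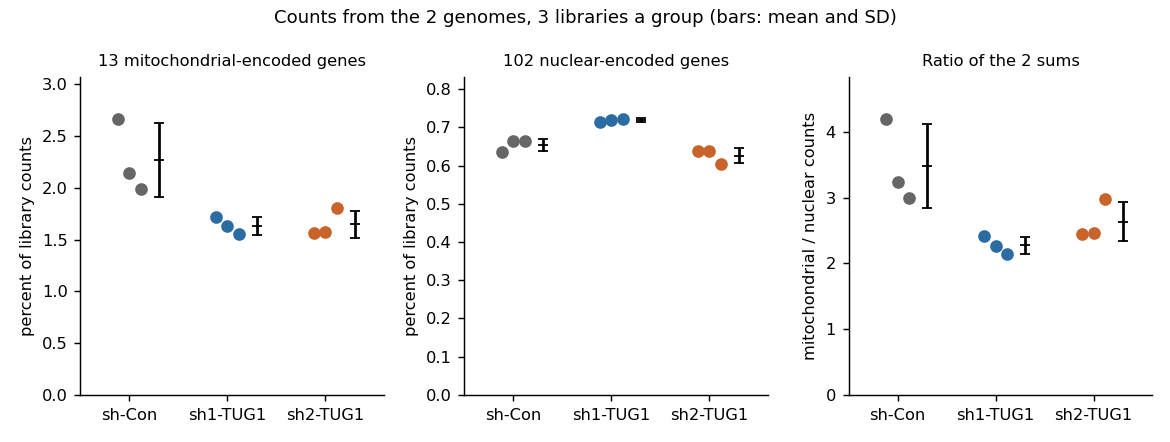
Share of library counts from the 13 mitochondrial-encoded genes (left), from the 102 nuclear-encoded genes (middle) and the ratio of both sums (right), with 1 point per library, and the mean and SD of 3 libraries beside the points. The mitochondrial share lies between 1.99% and 2.67% in sh-Con and at or below 1.80% in all 6 knockdown libraries.

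Each gene was then compared by the quasi-likelihood test of edgeR, and p-values were adjusted by Benjamini–Hochberg over all genes of a table. In sh1-TUG1 cells, 10 of the 13 mitochondrial genes were lower than in sh-Con at an adjusted p under 0.05 and 0 were higher, where 12.3% of all 13017 genes tested were lower and 12.5% higher. Their median log2(fold change) was −0.51, against 0.003 for all genes. In sh2-TUG1 cells, 9 of the 13 were lower and 0 higher, where 21.9% of all 12953 genes were lower and 21.6% higher, with a median of −0.36 against −0.005 for all genes. With the fold change over 1.5 that defines a differentially expressed gene (DEG) in the study, 5 mitochondrial genes were lower in sh1-TUG1, where 2.52% of all genes were, and 2 in sh2-TUG1, where 8.97% of all genes were. The genes lower in both lines were MT-ATP6, MT-ATP8, MT-CO1, MT-CYB, MT-ND1, MT-ND4, MT-ND4L and MT-ND5. MT-CO3 and MT-ND6 passed in sh1-TUG1 alone and MT-CO2 in sh2-TUG1 alone, while MT-ND2 and MT-ND3 passed in neither. The knockdown libraries lay under every sh-Con library, without overlap, for 10 of the 13 in sh1-TUG1, as 20.4% of all genes did, and for 6 in sh2-TUG1, as 27.4% did. Each of the 13 had its highest control level in sh-Con replicate 1. They therefore moved together between libraries, and these counts cannot be read as counts of independent genes.

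Of the 7 complex I subunits of the mitochondrial genome, MT-ND4 and MT-ND4L had the lowest log2(fold changes) in both lines. MT-ND4, a proton-pumping subunit of the membrane arm (chrM:10760-12137, GRCh38), had 4340, 3548 and 3294 CPM (scaled by TMM over all 9 libraries) in the sh-Con libraries, 2388, 2200 and 2116 in sh1-TUG1 and 2200, 2263 and 2614 in sh2-TUG1. All 6 knockdown libraries were below the lowest control library. Its log2(fold change) was −0.74 (SE 0.088, adjusted p = 3.41e-04) in sh1-TUG1 and −0.66 (SE 0.10, adjusted p = 5.97e-04) in sh2-TUG1. MT-ND4L (chrM:10470-10766), a small membrane subunit, had 718, 533 and 473 CPM in sh-Con, 353, 333 and 312 in sh1-TUG1 and 332, 338 and 411 in sh2-TUG1, again without overlap. It changed by −0.79 (SE 0.12, adjusted p = 0.00169) and −0.67 (SE 0.14, adjusted p = 0.00367). These 2 genes share an mRNA and overlap by 7 bases (chrM:10760-10766), so that reads at the border could be counted for either. The border is shown here since the pair moved together and cannot be read as independent genes. The last bases of MT-ND4L and the first bases of MT-ND4, from the GENCODE 29 transcripts, share the bases in capitals, in which the start codon of MT-ND4 lies inside the last codons of MT-ND4L:
MT-ND4L, 3′ end (chrM:10743-10766, plus strand): aacctaaacctactccaATGCTAA
MT-ND4, 5′ start (chrM:10760-10783, plus strand): ATGCTAAaactaatcgtcccaaca

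The other mitochondrial subunits of complex I were less uniform. MT-ND5 fell, with −0.62 (SE 0.10, adjusted p = 0.00244) in sh1-TUG1 and −0.42 (SE 0.10, adjusted p = 0.00816) in sh2-TUG1, and so did MT-ND1, with −0.53 (SE 0.10, adjusted p = 0.00357) and −0.41 (SE 0.10, adjusted p = 0.0101). MT-ND6, which lies on the opposite strand from the other 12 genes, had 441, 378 and 343 CPM in sh-Con, 340.0, 288 and 277 in sh1-TUG1 and 321, 349 and 335 in sh2-TUG1. It fell in sh1-TUG1, with −0.36 (SE 0.10, adjusted p = 0.0215), but this call was lost without sh1-TUG1 replicate 2, at −0.33 (adjusted p = 0.0868), and without its replicate 3, at −0.31 (adjusted p = 0.0842). In sh2-TUG1 MT-ND6 had −0.21 (SE 0.081, adjusted p = 0.0587). MT-ND3 was the gene with values on both sides of 0. It had 439.6, 389.9 and 283 CPM in sh-Con, 393, 449 and 345 in sh1-TUG1 and 377, 346 and 231 in sh2-TUG1, with the 3 groups overlapping and log2(fold changes) of 0.094 (SE 0.14, adjusted p = 0.680) and −0.22 (SE 0.19, adjusted p = 0.361). MT-ND2 had −0.33 (SE 0.12, adjusted p = 0.0800) and −0.35 (SE 0.13, adjusted p = 0.0538).

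In complex III, MT-CYB encodes cytochrome b, the 1 subunit of that complex from the mitochondrial genome (chrM:14747-15887). It had 923, 744 and 716 CPM in sh-Con, 538, 506 and 517 in sh1-TUG1 and 599, 617 and 719 in sh2-TUG1. The sh1-TUG1 libraries lay below the other 6, and sh2-TUG1 replicate 3 lay within the control range. The change was −0.61 (SE 0.082, adjusted p = 6.79e-04) in sh1-TUG1 and −0.30 (SE 0.10, adjusted p = 0.0319) in sh2-TUG1, where it was lost without sh-Con replicate 1, at −0.18 (adjusted p = 0.0702), without sh2-TUG1 replicate 1, at −0.25 (adjusted p = 0.124), and without its replicate 2, at −0.27 (adjusted p = 0.107). In the direct test of sh2-TUG1 against sh1-TUG1, MT-CYB was the 1 mitochondrial gene to pass and was higher in sh2-TUG1, with 0.31 (SE 0.090, adjusted p = 0.0155), where 21.0% of all 12854 genes were higher and 21.7% lower. That call was lost without sh1-TUG1 replicate 2, at 0.29 (adjusted p = 0.0546), and without sh2-TUG1 replicate 3, at 0.22 (adjusted p = 0.0607). The median of the 13 genes between the lines was 0.13.

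In complex IV, MT-CO1 encodes the catalytic subunit that binds heme and copper (chrM:5904-7445). It had 5055, 4045 and 4029 CPM in sh-Con, 2934, 2866 and 2693 in sh1-TUG1 and 2965, 2979 and 3451 in sh2-TUG1, with all knockdown libraries below the control, and changed by −0.63 (SE 0.079, adjusted p = 4.55e-04) and −0.48 (SE 0.091, adjusted p = 0.00225). MT-CO2, which accepts electrons from cytochrome c, had 5183, 4020 and 3502 CPM in sh-Con, 3691, 3412 and 3231 in sh1-TUG1 and 3251, 3120 and 3550 in sh2-TUG1. Its groups overlapped in both lines, with −0.30 (SE 0.12, adjusted p = 0.0880) in sh1-TUG1 and −0.36 (SE 0.12, adjusted p = 0.0328) in sh2-TUG1. The call in sh2-TUG1 was lost under DESeq2 (adjusted p = 0.0878) and without sh-Con replicate 2, sh2-TUG1 replicate 1 or sh2-TUG1 replicate 2, with adjusted p of 0.0545, 0.0993 and 0.11. MT-CO3 had −0.50 (SE 0.11, adjusted p = 0.00801) and −0.33 (SE 0.13, adjusted p = 0.0609). In complex V, MT-ATP8 and MT-ATP6, membrane subunits whose reading frames overlap by 46 bases, had −0.51 (SE 0.067, adjusted p = 6.38e-04) and −0.50 (SE 0.079, adjusted p = 0.00178) in sh1-TUG1. In sh2-TUG1, MT-ATP8 had −0.38 (SE 0.082, adjusted p = 0.00493) and MT-ATP6 −0.27 (SE 0.10, adjusted p = 0.0424), and the call of MT-ATP6 was lost without sh-Con replicate 1, at −0.16 (adjusted p = 0.105), without sh2-TUG1 replicate 1, at −0.22 (adjusted p = 0.158), and without its replicate 2, at −0.24 (adjusted p = 0.135). Nuclear copies of mitochondrial DNA can take reads from any of the 13 genes, and how the counting dealt with them is not given in the sources used here.

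**Figure D2:**
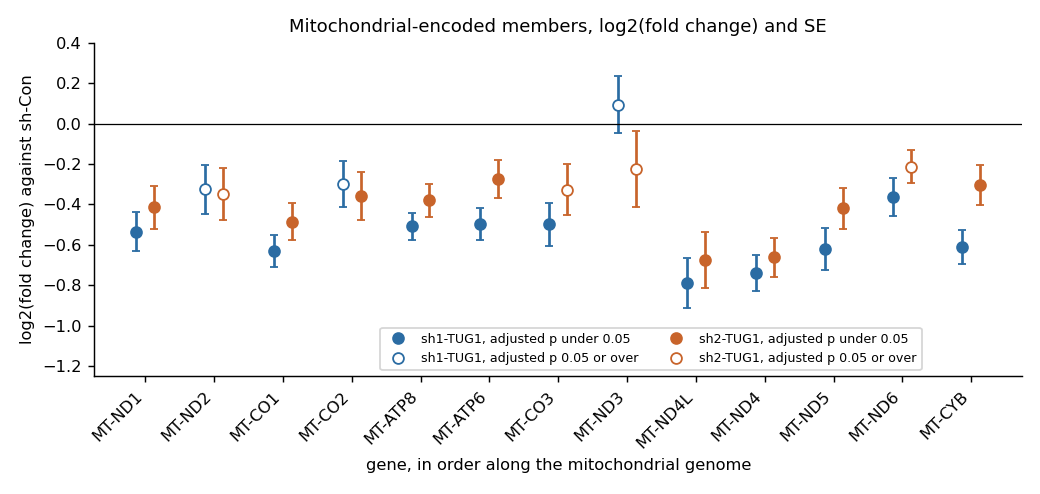
Log2(fold change) against sh-Con of the 13 mitochondrial-encoded genes, in their order along the mitochondrial genome, in sh1-TUG1 (blue) and sh2-TUG1 (orange), with SE bars from the edgeR fits and filled points for an adjusted p under 0.05. MT-ND4L and MT-ND4 are lowest in both lines, and MT-ND3 in sh1-TUG1 is the single value above 0.

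Because the 13 genes did not move by the same amount, their shares of the mitochondrial counts shifted. MT-ND4 took 16.5% ± 0.327 (SD, n = 3) of the mitochondrial counts in sh-Con, but 14.0% ± 0.194 with hairpin sh1 and 14.0% ± 0.237 with sh2. MT-ND4L took 2.52% ± 0.133, 2.08% ± 0.0186 and 2.13% ± 0.0885. In both cases no knockdown library overlapped the control. MT-CO2 took 18.6% ± 0.765, 21.5% ± 0.322 and 19.6% ± 0.572, and MT-ND2 took 11.9% ± 0.633, 13.6% ± 0.206 and 12.7% ± 0.289. MT-CO2 lay above the control in all 6 knockdown libraries, while MT-ND2 did so in the 3 sh1-TUG1 libraries and overlapped with it in sh2-TUG1. Per kilobase of transcript, MT-CO2 had the highest mean level of the 13 genes in sh-Con, at 6191 CPM per kb, and MT-ND5 the lowest, at 654. The nuclear member with the highest mean level, ATP5F1B, had 297 CPM per kb in sh-Con.

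The fall of the mitochondrial genes depended on single libraries in size but not in direction. Without sh-Con replicate 1, 10 of the 13 genes were still lower in sh1-TUG1, the same 10, with a median of −0.40, and 7 of the 9 in sh2-TUG1, with a median of −0.19. The 10 genes in sh1-TUG1 then ran from −0.62 (MT-ND4) to −0.26 (MT-ND6), each within 1.5 times of its value with all libraries. MT-ND2 and MT-CO2, which had not passed in sh1-TUG1, moved to −0.14 and −0.13, and MT-ND3 to 0.23. In sh2-TUG1, MT-ND4, MT-ND4L, MT-CO1, MT-ATP8 and MT-ND5 stayed within 1.5 times, from −0.54 (MT-ND4) to −0.29 (MT-ND5). The other 8 shrank by more, with −0.27 for MT-ND1 and −0.19 for MT-CO2, which still passed, −0.18 for MT-CYB and −0.16 for MT-ATP6, which no longer did, and −0.16 for MT-CO3, −0.16 for MT-ND2, −0.11 for MT-ND6 and −0.085 for MT-ND3. Without sh2-TUG1 replicate 3, the median in sh2-TUG1 was −0.44 and 11 genes were lower, with MT-CO3, at −0.44 (adjusted p = 0.0209), and MT-ND2, at −0.41 (adjusted p = 0.0426), added to the 9, while MT-ND3 had −0.038. Transcript length also moved with the sh2-TUG1 comparison. Nuclear genes outside the list with transcripts under 1000 bases had a median log2(fold change) of −0.11 in sh2-TUG1 and those of 4000 bases or more 0.048, against 0.012 and 0.0064 in sh1-TUG1, and 8 of the 13 mitochondrial and 43 of the 102 nuclear members have transcripts under 1000 bases. With an offset for transcript length in each library, 10 mitochondrial genes were lower in sh1-TUG1, with a median of −0.54, and 5 in sh2-TUG1, with a median of −0.23. The share of all genes called is not given here for this fit or for those without single libraries. The 4 genes that lost the call in sh2-TUG1 were MT-ATP6, at −0.14 (adjusted p = 0.290), MT-ATP8, at −0.15 (adjusted p = 0.253), MT-CO2, at −0.23 (adjusted p = 0.153), and MT-CYB, at −0.21 (adjusted p = 0.112).

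The nuclear members did not fall with the mitochondrial ones in sh1-TUG1, while in sh2-TUG1, without the length offset, more were lower than higher. In sh1-TUG1 cells, 14 of the 102 were higher than in sh-Con, or 13.7%, close to the 12.5% of all genes, and 2 were lower, or 1.96%, where 12.3% of all genes were. Their median was 0.10. In sh2-TUG1 cells, 9 were higher, or 8.82%, where 21.6% of all genes were, and 28 were lower, or 27.5%, where 21.9% of all genes were, with a median of −0.055. Between the lines, 42 nuclear members were lower with hairpin sh2, or 41.2%, where 21.7% of all genes were, and 5 were higher, or 4.90%, where 21.0% of all genes were, with a median of −0.18. COX19, COX20, NDUFB11, NDUFC2, NDUFS6 and SDHA were higher in both lines, NDUFA4L2 and SDHAF3 were lower in both, and UQCRH was higher in sh1-TUG1 and lower in sh2-TUG1. With the DEG criteria, sh1-TUG1 had 2 nuclear members higher and 1 lower, where 2.44% and 2.52% of all genes were, and 1 was higher and 5 lower in sh2-TUG1, where 4.35% and 8.97% were. Between the lines 0 were higher and 3 lower, where 2.56% and 8.04% of all genes were. Libraries did not overlap with sh-Con for 34 higher and 4 lower nuclear members in sh1-TUG1, against 21.3% and 20.4% of all genes, and for 14 higher and 26 lower in sh2-TUG1, against 27.1% and 27.4%. The lines did not overlap with each other for 8 higher and 50 lower nuclear members, against 27.8% and 27.6%. A further 25 members were lower in sh2-TUG1 alone, and 58 passed in neither line. Of the 102, 49 overlap another protein-coding gene or have a near-identical copy, and of the other 53, 7 were higher and 1 lower in sh1-TUG1. With the offset for transcript length, the median in sh2-TUG1 turned to 0.023, with 17 nuclear members higher and 15 lower, and the median in sh1-TUG1 was 0.090, with 12 higher and 2 lower. All 15 were among the 28 lower members of the fit without the offset. Without sh-Con replicate 1, the median in sh1-TUG1 was 0.067 with 22 higher and 1 lower, and in sh2-TUG1 −0.12 with 13 higher and 30 lower. Without sh2-TUG1 replicate 3, 19 were lower in sh2-TUG1. The share of all genes called is not given here for the length offset or for fits without single libraries. Whether these counts moved more than those of all genes was not tested.

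**Figure D3:**
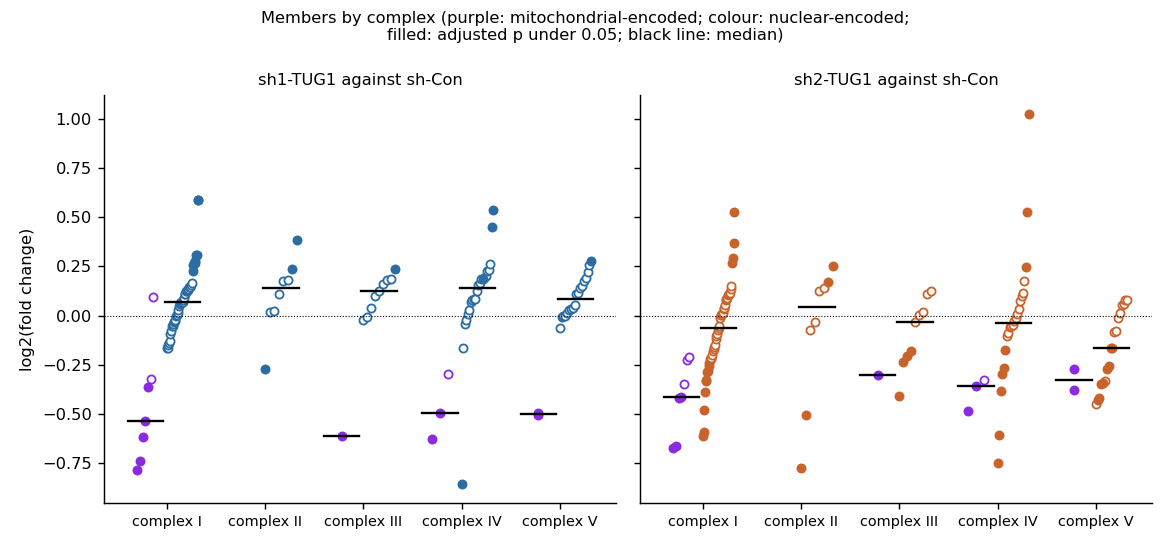
Log2(fold change) of each member by complex, sorted within a group, in sh1-TUG1 (left) and sh2-TUG1 (right) against sh-Con, for mitochondrial-encoded (purple) and nuclear-encoded genes (blue or orange), filled where the adjusted p was under 0.05, with the median as a black line. In each of complexes I, III, IV and V the mitochondrial median lies below the nuclear one in both lines, and the nuclear median of complex V in sh2-TUG1 is −0.17.

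Complex I oxidizes NADH and had 45 nuclear members, and sh1-TUG1 had 7 higher (15.6%) and 0 lower, where 12.5% and 12.3% of all genes were, and sh2-TUG1 4 higher (8.89%) and 8 lower (17.8%), where 21.6% and 21.9% of all genes were. Of its catalytic core, NDUFS7 and NDUFS8, which carry iron-sulfur clusters close to the quinone site, rose in sh1-TUG1, with 0.27 (SE 0.061, adjusted p = 0.0111) and 0.27 (SE 0.063, adjusted p = 0.0131), while their values in sh2-TUG1 were 0.086 (SE 0.064, adjusted p = 0.308) and 0.055 (SE 0.065, adjusted p = 0.521). The call of NDUFS8 was lost without sh-Con replicate 3, at 0.23 (adjusted p = 0.0561), and without sh1-TUG1 replicate 2, at 0.21 (adjusted p = 0.0603). NDUFV1 (chr11:67605653-67612554), the flavoprotein subunit that binds NADH, had 75.3, 75.6 and 77.7 CPM in sh-Con, 74.4, 73.2 and 74.5 in sh1-TUG1 and 57.6, 61.4 and 55.9 in sh2-TUG1. The sh2-TUG1 libraries were the lowest 3 of the 9. The change was −0.39 (SE 0.056, adjusted p = 4.93e-04) in sh2-TUG1 and −0.044 (SE 0.047, adjusted p = 0.548) in sh1-TUG1, and sh2-TUG1 differed from sh1-TUG1 by −0.35 (SE 0.049, adjusted p = 1.72e-04). Of the other core subunits, NDUFS1 and NDUFS3 did not pass in either line. NDUFS1 had −0.029 in sh1-TUG1 and 0.13 in sh2-TUG1, while NDUFS3, which overlaps CELF1, PTPMT1 and KBTBD4, had 0.13 and −0.092.

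Among the accessory subunits of complex I, NDUFC2 rose in both lines. NDUFC2 (chr11:78068304-78080219) had 141, 130.3 and 137 CPM in sh-Con, 205, 204 and 205 in sh1-TUG1 and 201, 203 and 187 in sh2-TUG1, with every knockdown library above the control. Its changes were 0.59 (SE 0.044, adjusted p = 2.17e-05) and 0.53 (SE 0.052, adjusted p = 5.36e-05), and the lines differed by −0.056 (SE 0.044, adjusted p = 0.334). NDUFC2 overlaps the readthrough gene NDUFC2-KCTD14 on the same strand, and reads of the 2 cannot be told apart in the shared exons. NDUFB1, a small membrane-arm subunit with few counts (chr14:92116122-92121917), had 3.72, 3.43 and 3.78 CPM in sh-Con, 5.54, 5.29 and 5.65 in sh1-TUG1 and 3.20, 3.44 and 3.03 in sh2-TUG1. It stood above the other groups in sh1-TUG1 alone, with 0.59 (SE 0.14, adjusted p = 0.0156), against −0.18 (SE 0.17, adjusted p = 0.430) in sh2-TUG1 and −0.77 (SE 0.14, adjusted p = 0.00125) between the lines. The call in sh1-TUG1 was lost without sh-Con replicate 2, at 0.54 (adjusted p = 0.0510), and without sh1-TUG1 replicate 3, at 0.57 (adjusted p = 0.0666). NDUFA7 (chr19:8308768-8321396) went the other way. It had 15.5, 17.7 and 15.5 CPM in sh-Con, 15.3, 14.3 and 14.2 in sh1-TUG1 and 10.2, 10.7 and 11.1 in sh2-TUG1, and fell in sh2-TUG1, with −0.61 (SE 0.094, adjusted p = 7.47e-04), whereas sh1-TUG1 had −0.15 (SE 0.087, adjusted p = 0.240). It overlaps AC010323.1 on the same strand and RPS28 on the opposite strand, and RPS28 had 0.46 and 0.19 in sh1-TUG1 and sh2-TUG1, and whether the counting used strand is not given in the sources used here.

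Of the 8 complex I assembly factors, 0 passed in sh1-TUG1, and in sh2-TUG1 1 was higher and 1 lower, with 21.6% and 21.9% of all genes higher and lower there. NDUFAF3 (chr3:49020459-49023495), which joins the early assembly of the quinone-binding module, had 29.1, 26.6 and 26.5 CPM in sh-Con, 23.8, 24.4 and 26.6 in sh1-TUG1 and 18.0, 17.9 and 18.6 in sh2-TUG1. It fell in sh2-TUG1, with −0.60 (SE 0.068, adjusted p = 1.25e-04), against −0.14 (SE 0.071, adjusted p = 0.190) in sh1-TUG1. DALRD3, which overlaps NDUFAF3 on the opposite strand, had −0.65 in sh2-TUG1 and −0.30 in sh1-TUG1, so the 2 genes are uncertain apart. NDUFAF6 rose in sh2-TUG1, with 0.37 (SE 0.11, adjusted p = 0.0226), but overlaps TP53INP1 and CCNE2 on the opposite strand, and the call was lost without sh-Con replicate 2, sh-Con replicate 3 or sh2-TUG1 replicate 3, with adjusted p of 0.0662, 0.0715 and 0.0864.

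Complex II is succinate dehydrogenase, an enzyme of the citric acid cycle as well as of the respiratory chain, and the mitochondrial genome holds none of its subunits. SDHA (chr5:218241-256700), the flavoprotein subunit that oxidizes succinate, had 108, 101 and 105 CPM in sh-Con, 138, 137 and 136 in sh1-TUG1 and 126, 125 and 125 in sh2-TUG1. The 3 groups did not overlap, with sh1-TUG1 highest and the control lowest. It rose by 0.39 (SE 0.044, adjusted p = 2.75e-04) in sh1-TUG1 and 0.25 (SE 0.047, adjusted p = 0.00213) in sh2-TUG1. SDHA has pseudogene copies in the genome that can share its reads. SDHB, the iron-sulfur subunit, passed in sh2-TUG1 alone, with 0.17 (SE 0.062, adjusted p = 0.0480) against 0.11 (SE 0.061, adjusted p = 0.237) in sh1-TUG1. The call of SDHB was lost without any 1 of sh-Con replicate 2, sh-Con replicate 3 and the 3 sh2-TUG1 libraries, with adjusted p of 0.117, 0.161, 0.0776, 0.0846 and 0.145, and with library size alone (adjusted p = 0.0962). SDHC, a membrane anchor, passed in sh1-TUG1, with 0.24 (SE 0.067, adjusted p = 0.0294) against −0.073 (SE 0.071, adjusted p = 0.439) in sh2-TUG1, but not without replicate 1, 2 or 3 of sh1-TUG1, with adjusted p of 0.0985, 0.0574 and 0.0951. SDHD, the other anchor, had 0.020 (SE 0.10, adjusted p = 0.913) and −0.033 (SE 0.11, adjusted p = 0.837).

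Of the 4 assembly factors of complex II, 1 was lower and 0 higher in sh1-TUG1, against 12.3% and 12.5% of all genes, and 2 were lower and 0 higher in sh2-TUG1, against 21.9% and 21.6%. SDHAF1 had 0.18 in sh1-TUG1 and 0.14 in sh2-TUG1, while SDHAF2 had 0.022 and 0.12, and neither passed. SDHAF4 (chr6:70566917-70589569), a chaperone of the flavinated SDHA subunit, had 6.96, 8.07 and 8.22 CPM in sh-Con, 8.49, 8.99 and 8.94 in sh1-TUG1 and 4.09, 4.76 and 4.74 in sh2-TUG1. The 3 sh2-TUG1 libraries were below all others and the sh1-TUG1 libraries above the control. The change was −0.78 (SE 0.14, adjusted p = 0.00211) in sh2-TUG1 and 0.18 (SE 0.12, adjusted p = 0.292) in sh1-TUG1, and between the lines −0.96 (SE 0.12, adjusted p = 8.67e-05). SDHAF3, an assembly factor of SDHB, fell in both lines, with −0.27 (SE 0.085, adjusted p = 0.0422) and −0.50 (SE 0.091, adjusted p = 0.00176). The call in sh1-TUG1 was lost when any 1 of the 6 libraries was left out, with adjusted p of 0.0553 to 0.139, and with library size alone (adjusted p = 0.0618).

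Complex III passes electrons from ubiquinol to cytochrome c and had 9 nuclear members, of which 1 was higher and 0 lower in sh1-TUG1 (12.5% and 12.3% of all genes), and 0 higher and 4 lower in sh2-TUG1 (21.6% and 21.9% of all genes). Its Rieske iron-sulfur protein, UQCRFS1, had 0.19 (SE 0.081, adjusted p = 0.124) in sh1-TUG1 and 0.12 (SE 0.092, adjusted p = 0.307) in sh2-TUG1, and the core protein UQCRC1 had 0.13 (SE 0.042, adjusted p = 0.0523) and 0.11 (SE 0.046, adjusted p = 0.0786). None of these passed. UQCRQ (chr5:132866560-132868031), a small subunit next to cytochrome b, had 24.0, 28.5 and 29.8 CPM in sh-Con, 31.5, 31.5 and 29.3 in sh1-TUG1 and 22.2, 21.3 and 18.6 in sh2-TUG1, with sh2-TUG1 below the control in all 3 libraries and −0.41 (SE 0.10, adjusted p = 0.00847) there against 0.16 (SE 0.085, adjusted p = 0.199) in sh1-TUG1. UQCRH, the hinge protein, had 0.24 (SE 0.057, adjusted p = 0.0143) in sh1-TUG1 and −0.18 (SE 0.064, adjusted p = 0.0468) in sh2-TUG1, and the lines differed by −0.41 (SE 0.056, adjusted p = 1.19e-04). With the length offset its value in sh2-TUG1 was −0.040 (adjusted p = 0.636), and that call was also lost without sh-Con replicate 2, sh-Con replicate 3 or any 1 sh2-TUG1 library, with adjusted p of 0.132, 0.142, 0.088, 0.0817 and 0.157. In sh1-TUG1 the call was lost without replicate 1 or 3 of that group, with adjusted p of 0.056 and 0.0555. UQCRH has a near-identical copy, UQCRHL, with a mean of 1.10 CPM per kb in sh-Con against 110.0 for UQCRH, and reads of the 2 can be split between them.

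Complex IV, cytochrome c oxidase, reduces oxygen. Of its 12 nuclear subunit genes in the list, sh1-TUG1 had 1 higher and 1 lower, beside 12.5% and 12.3% of all genes, and sh2-TUG1 had 0 higher and 3 lower, beside 21.6% and 21.9%. COX5A, which lies next to the catalytic core, had 0.19 (SE 0.052, adjusted p = 0.0259) in sh1-TUG1, a call lost without sh-Con replicate 2 or 3 and without sh1-TUG1 replicate 2 or 3, with adjusted p of 0.076, 0.0883, 0.103 and 0.107, and 0.074 (SE 0.054, adjusted p = 0.301) in sh2-TUG1. COX4I1, COX6A1 and COX7A2, the widely expressed forms of subunits with tissue-specific isoforms, did not pass in either line. COX4I1 had 0.15 in sh1-TUG1 and 0.11 in sh2-TUG1, COX6A1 0.23 and 0.18, and COX7A2 0.083 and −0.015. The isoforms COX4I2, COX6A2 and COX7A1 were not analysed here. COX7A2L, which links complexes III and IV in supercomplexes, had 0.068 and 0.10.

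The nuclear subunit gene of complex IV that fell in both lines was NDUFA4L2, a hypoxia-induced isoform of NDUFA4. NDUFA4L2 (chr12:57234903-57240715) had 4.21, 2.84 and 3.59 CPM in sh-Con, 1.99, 2.04 and 1.83 in sh1-TUG1 and 1.78, 2.33 and 2.20 in sh2-TUG1. All 6 knockdown libraries lay below the control, with −0.86 (SE 0.21, adjusted p = 0.0150) and −0.75 (SE 0.22, adjusted p = 0.0217). The call in sh1-TUG1 was lost without its replicate 3, at −0.81 (adjusted p = 0.0577), and that in sh2-TUG1 without sh-Con replicate 1, at −0.61 (adjusted p = 0.0685), without sh-Con replicate 3, at −0.74 (adjusted p = 0.0566), and without sh2-TUG1 replicate 1, at −0.64 (adjusted p = 0.0727). It overlaps SHMT2 on the opposite strand, which had 0.042 and 0.11. NDUFA4 itself had 0.080 (SE 0.090, adjusted p = 0.566) and −0.056 (SE 0.11, adjusted p = 0.717). Per kilobase, NDUFA4 was at 37.4 and NDUFA4L2 at 2.99 CPM per kb in sh-Con.

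Of the 10 assembly factors of complex IV, sh1-TUG1 had 2 higher and 0 lower, when 12.5% and 12.3% of all genes were, and sh2-TUG1 had 3 higher and 3 lower, when 21.6% and 21.9% of all genes were. COX20 (chr1:244835322-244845057), a chaperone that binds newly made MT-CO2, had 31.4, 32.3 and 31.7 CPM in sh-Con, 43.8, 44.1 and 42.4 in sh1-TUG1 and 66.6, 59.5 and 68.6 in sh2-TUG1. The 3 groups did not overlap. The changes were 0.45 (SE 0.052, adjusted p = 2.94e-04) in sh1-TUG1 and 1.03 (SE 0.066, adjusted p = 4.14e-06) in sh2-TUG1, the highest value of any member, and sh2-TUG1 exceeded sh1-TUG1 by 0.58 (SE 0.058, adjusted p = 1.35e-05). It overlaps HNRNPU on the opposite strand, which had −0.12 and −0.068. COX19, a copper-related factor of the intermembrane space, had 29.8, 29.5 and 30.0 CPM in sh-Con, 44.7, 42.2 and 43.0 in sh1-TUG1 and 45.4, 42.6 and 41.2 in sh2-TUG1, with 0.54 (SE 0.054, adjusted p = 1.18e-04) and 0.53 (SE 0.060, adjusted p = 1.21e-04). The knockdown lines overlapped each other for COX19 and both lay above the control, and the overlapping same-strand gene ADAP1 had 0.32 and 0.029. COX18 (chr4:73052362-73069755), a translocase that inserts the tail of MT-CO2 into the inner membrane, had 18.9, 16.5 and 18.9 CPM in sh-Con, 17.3, 17.4 and 18.0 in sh1-TUG1 and 11.7, 12.03 and 11.9 in sh2-TUG1. It fell in sh2-TUG1, with −0.61 (SE 0.087, adjusted p = 4.93e-04), against −0.043 (SE 0.080, adjusted p = 0.747) in sh1-TUG1 and −0.56 (SE 0.077, adjusted p = 1.36e-04) between the lines.

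Complex V is the ATP synthase. Of its 18 nuclear members, 8 were lower in sh2-TUG1, or 44.4% against 21.9% of all genes, the same share as in complex III. None was higher, where 21.6% of all genes were, and the median was −0.17. In sh1-TUG1 1 was higher and 0 lower, where 12.5% and 12.3% of all genes were, with a median of 0.082. Between the lines 11 were lower in sh2-TUG1, or 61.1%, where 21.7% of all genes were. With the length offset, 4 of the 18 were lower in sh2-TUG1, with a median of −0.12, and 7 between the lines. The share of all genes called with that offset is not given here. Of the catalytic head, ATP5F1B (chr12:56638175-56646068), the catalytic beta subunit, had 531, 561 and 546 CPM in sh-Con, 567, 566 and 569 in sh1-TUG1 and 489, 496 and 478 in sh2-TUG1. The sh2-TUG1 libraries were below all others, with −0.17 (SE 0.043, adjusted p = 0.0123), against 0.054 (SE 0.038, adjusted p = 0.347) in sh1-TUG1, but with the length offset the value was −0.12 (adjusted p = 0.0564). ATP5F1A, the alpha subunit, had 0.15 (SE 0.058, adjusted p = 0.0878) and −0.079 (SE 0.071, adjusted p = 0.401).

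The 3 genes for the c-ring of complex V, which encode the same mature protein, fell in sh2-TUG1. ATP5MC2 (chr12:53632726-53677408) had 84.6, 75.9 and 72.1 CPM in sh-Con, 79.1, 76.7 and 82.0 in sh1-TUG1 and 56.1, 55.9 and 60.8 in sh2-TUG1. Its change was −0.43 (SE 0.070, adjusted p = 0.00102) in sh2-TUG1, below all control libraries, and 0.032 (SE 0.064, adjusted p = 0.765) in sh1-TUG1. ATP5MC1 had −0.35 (SE 0.10, adjusted p = 0.0236) and 0.19 (SE 0.095, adjusted p = 0.173), and ATP5MC3 −0.26 (SE 0.075, adjusted p = 0.0202) and 0.011 (SE 0.062, adjusted p = 0.919), in the same order. In sh2-TUG1 the call of ATP5MC1 was lost with the length offset, at −0.20 (adjusted p = 0.163), and without sh-Con replicate 1, sh2-TUG1 replicate 1 or sh2-TUG1 replicate 2, with adjusted p of 0.0666, 0.0842 and 0.0869. That of ATP5MC3 was lost without sh-Con replicate 2, sh-Con replicate 3 or sh2-TUG1 replicate 3, with adjusted p of 0.0689, 0.0727 and 0.0627. ATP5ME, a short accessory subunit, passed between the lines alone, with −0.71 (SE 0.25, adjusted p = 0.0361), where sh1-TUG1 held 8.79, 14.5 and 7.91 CPM and sh2-TUG1 8.37, 5.15 and 5.60, so that the libraries overlapped. It overlaps MYL5 on the opposite strand, which had −0.48 in sh1-TUG1 and −1.03 in sh2-TUG1 against sh-Con. The call was lost with the length offset, at −0.50 (adjusted p = 0.110), and when single libraries were left out. Without sh1-TUG1 replicate 2 it had −0.39 (adjusted p = 0.191), without sh2-TUG1 replicate 2 −0.58 (adjusted p = 0.124), and without sh2-TUG1 replicate 3 −0.62 (adjusted p = 0.103). The inhibitor of the synthase, ATP5IF1, had 0.28 (SE 0.086, adjusted p = 0.0398) in sh1-TUG1 and 0.082 (SE 0.083, adjusted p = 0.457) in sh2-TUG1. The call was lost with the length offset, at 0.26 (adjusted p = 0.0519), and without sh-Con replicate 2, sh-Con replicate 3, sh1-TUG1 replicate 1 or sh1-TUG1 replicate 2, with adjusted p of 0.137, 0.0998, 0.089 and 0.147.

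**Figure D4:**
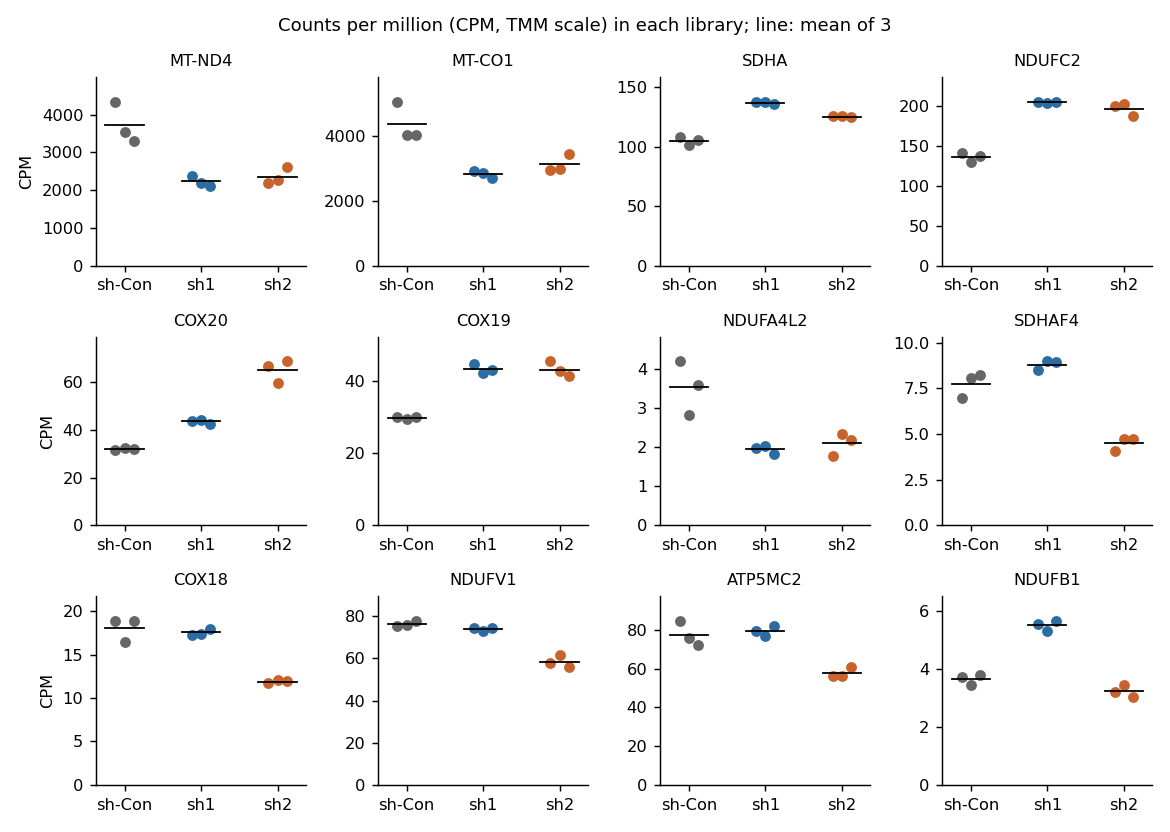
CPM of 12 members in each of the 9 libraries, on 1 TMM scale from an axis that starts at 0, with the mean of each group as a line. MT-ND4 and MT-CO1 are lower in both knockdown lines, SDHA, NDUFC2, COX20 and COX19 higher in both, and SDHAF4, COX18, NDUFV1 and ATP5MC2 lower in sh2-TUG1.

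**Figure D5:**
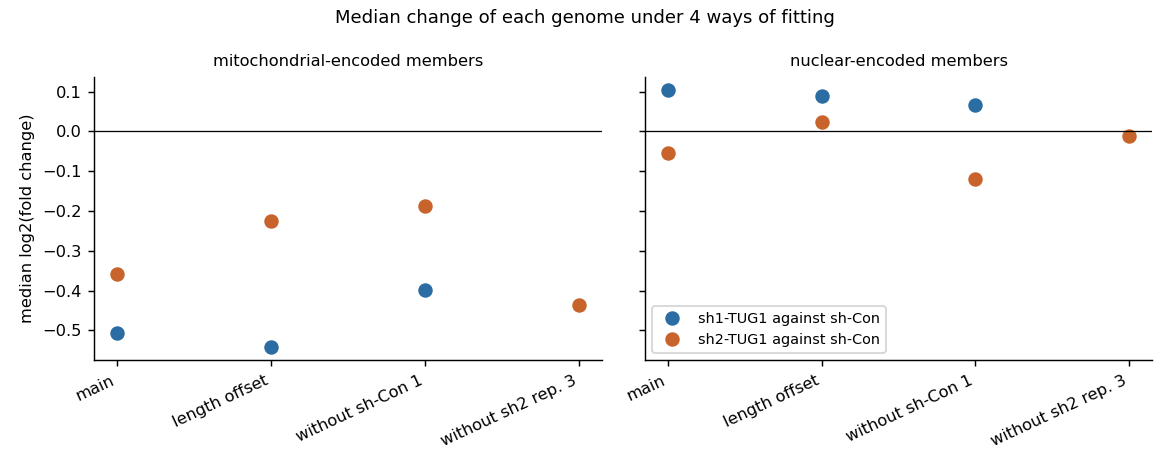
Median log2(fold change) of the mitochondrial-encoded (left) and nuclear-encoded members (right) in the fit as reported, with an offset for transcript length, without sh-Con replicate 1 and, for sh2-TUG1, without its replicate 3. The mitochondrial medians stay below 0 in every case, from −0.54 to −0.19, and the nuclear median of sh2-TUG1 moves from −0.12 to 0.023.

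The nuclear genes that serve the same pathway but fall outside the symbol rule were followed in 4 lists of 90 genes, all of which were tested. Of 29 genes for mitochondrial transcription, RNA processing and DNA maintenance, 1 was higher and 5 lower in sh1-TUG1, and 5 higher and 7 lower in sh2-TUG1, with medians of −0.042 and −0.031. Over all genes tested, sh1-TUG1 had 12.5% higher and 12.3% lower, and sh2-TUG1 had 21.6% and 21.9%. TFAM, the factor that packages and transcribes mitochondrial DNA, had 66.6, 73.0 and 74.0 CPM in sh-Con, 79.3, 72.8 and 76.1 in sh1-TUG1 and 80.2, 82.5 and 78.8 in sh2-TUG1. The sh2-TUG1 libraries lay above the control and those of sh1-TUG1 overlapped with it, with 0.094 (SE 0.060, adjusted p = 0.296) in sh1-TUG1 and 0.17 (SE 0.059, adjusted p = 0.0365) in sh2-TUG1, and the latter call was lost with the length offset, at 0.14 (adjusted p = 0.0677), with library size alone (adjusted p = 0.0922), and without sh-Con replicate 1 or 2 or any 1 sh2-TUG1 library, with adjusted p of 0.0639, 0.0516, 0.0865, 0.122 and 0.0599. POLRMT, the mitochondrial RNA polymerase, had 0.064 (SE 0.057, adjusted p = 0.455) and 0.031 (SE 0.060, adjusted p = 0.703), and LRPPRC, which stabilizes mitochondrial mRNAs, had −0.029 (SE 0.040, adjusted p = 0.644) and 0.063 (SE 0.047, adjusted p = 0.308). None of these 3 genes passed as lower in either line. Of 8 nuclear regulators, sh1-TUG1 had 1 higher and 1 lower, and sh2-TUG1 had 4 higher and 0 lower, beside the same shares of all genes, the 4 being GABPB1, ESRRA, PPARGC1A and YY1, named after their values were seen. PPARGC1A, a coactivator of mitochondrial biogenesis, had 64.8, 67.3 and 62.7 CPM in sh-Con, 71.4, 67.9 and 72.7 in sh1-TUG1 and 102, 106 and 101 in sh2-TUG1, with 0.12 (SE 0.054, adjusted p = 0.130) and 0.66 (SE 0.053, adjusted p = 1.40e-05) and a difference between the lines of 0.54 (SE 0.049, adjusted p = 6.08e-06). NRF1, which drives many nuclear respiratory genes, had −0.0041 (SE 0.11, adjusted p = 0.982) and 0.039 (SE 0.13, adjusted p = 0.830).

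Promoters were looked at because the nuclear members did not share a direction. RefSeq promoters on GRCh38.p14, from 250 bases before to 50 after the start, were matched by symbol for 83 of the 102 nuclear members, with 105 promoters. The palindromic motif of NRF1, GCGCA followed directly by its reverse complement TGCGC, was present in 8 of these 105 promoters, or 7.62%, and in 1.24% of all 35116 promoters. The ETS motif CCGGAAG, searched on both strands as CCGGAAG or CTTCCGG, was present in 31 of 105, or 29.5%, and in 10.3% of all. The 8 promoters with the NRF1 motif belong to 7 of the 83 members, and the 31 with the ETS motif to 28. Promoters of a gene can overlap and hold the same site, as for COX18. Members with a promoter that were lower in sh2-TUG1 held the NRF1 motif in 2 of 21 cases and the ETS motif in 6 of 21. Those higher held them in 0 of 7 and 3 of 7, and those not called in 5 of 55 and 19 of 55. Windows of 30 bases around the motif, in capitals, run 5′ to 3′ on the strand of the gene. For the NRF1 motif they are given for COX18 and ATP5F1C, both lower in sh2-TUG1. For the ETS motif they are given for COX20, higher in sh2-TUG1, and UQCRQ, lower in it:
COX18, NRF1 motif (chr4:73069744-73069773, minus strand): gcaggcaggcGCGCATGCGCtttatgcccg
ATP5F1C, NRF1 motif (chr10:7788145-7788174, plus strand): gggagcttcgGCGCATGCGCgctgaggcct
COX20, ETS motif (chr1:244835124-244835153, plus strand): tcgtcccgtggCCGGAAGgacaaaggacac
UQCRQ, ETS motif (chr5:132866577-132866606, plus strand): aatggtatctcCCGGAAGttacctcacgac
COX20 and UQCRQ carry the same ETS letters and changed by 1.03 and −0.41 on the log2 scale in sh2-TUG1. COX18 and ATP5F1C carry the same NRF1 letters and changed by −0.61 and −0.17, while NDUFA8, which also holds the motif, had −0.011 and did not pass.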

How the data were processed

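RNA was sequenced from HepG2 cells with a control hairpin or 1 of 2 TUG1 hairpins, in 3 libraries a group. The authors deposited 2 tables of read counts per gene, 1 for each hairpin line, both holding the same control libraries. The submitters' processing notes name HISAT2 and StringTie, without versions, and the build GRCh38. The counting tool, annotation and use of strand are not given in the sources used here. The deposited FPKM columns, and the authors' own columns of log2 fold change and FDR, were not used. Rows without an Ensembl identifier held 1.46% and 1.41% of the counts and were kept.

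Members were found by symbol and assigned to complexes by name. Members and lists were chosen with earlier results of these data known. Each line was compared with the control in its own table by edgeR 4.0.16 in R 4.3.3 (TMM factors, filterByExpr, glmQLFit and glmQLFTest), and the lines with each other in 1 fit of all 9 libraries. A gene was called at an adjusted p under 0.05. Levels are TMM-scaled CPM over all 9 libraries. The filter removed no gene. With 33049003 to 39387125 counts a library, the depth limits the genes of a few CPM most. The steps were tested on simulated data. Transcript lengths and positions came from GENCODE 29. The length offset was a loess curve (span 0.5) on log length, fitted for each library. The curve was fitted to the deviation of log CPM (prior count 2) from the mean of the gene over libraries. Alternatives were DESeq2 1.42.0, other scalings and filters, 1 fit of all libraries, a replicate block, the length offset and leaving out each library.

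The genes named were every mitochondrial gene, core catalytic subunits, isoform pairs, members past the DEG criteria, the 3 highest and 3 lowest called members of each comparison, and chosen regulators. Of these, 1 core subunit is not reported here. UQCRH, UQCRQ, SDHAF3, ATP5F1C, NDUFA8, NDUFB11, NDUFS6, SDHAF1 and SDHAF2, and the genes given only for their overlap, were named after their values were seen. So were PNPT1, MTERF3, POLG and ELAC2.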

Additional observations from a re-analysis of the deposited data

Results flagged for a closer look

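Among the named genes alone, the effects of the 2 hairpins differed at an adjusted p under 0.05 for 24. The test was edgeR's quasi-likelihood test of sh2-TUG1 against sh1-TUG1 over 12854 genes. Of all genes, 42.7% passed in either direction, so the 24 are listed singly and are not read as an excess. Genes named for other reasons, such as ETFB, ETFDH or those given only for their overlap, were not counted here. ATP5ME and NDUFAF6 were named because of their values in this comparison, and UQCRH and UQCRQ after their values were seen. Values are log2 differences, positive where sh2-TUG1 was higher. Groups of 3 libraries are too small for a check of single outlying libraries.

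In complex I, sh2-TUG1 was lower for NDUFB1 (−0.77), NDUFA7 (−0.46), NDUFAF3 (−0.46), NDUFV1 (−0.35), NDUFS8 (−0.21) and NDUFS7 (−0.18), and higher for NDUFAF6 (0.29) and NDUFS1 (0.16). The calls of NDUFAF6, NDUFS1, NDUFS7 and NDUFS8 were lost without at least 1 of the knockdown libraries. With the transcript length offset the differences of NDUFS1, NDUFS7 and NDUFS8 shrank to 0.10 (adjusted p = 0.0856), −0.073 (adjusted p = 0.321) and −0.074 (adjusted p = 0.413) and did not pass, and with library size alone those of NDUFS1 and NDUFAF6 did not. In complex II, sh2-TUG1 was lower for SDHAF4 (−0.96), SDHC (−0.31) and SDHA (−0.13), the last lost without any 1 of sh1-TUG1 replicates 1, 2 and 3 or sh2-TUG1 replicate 2. In complex III, it was lower for UQCRQ (−0.57), UQCRH (−0.41) and CYC1 (−0.23), and higher for MT-CYB (0.31). The call of CYC1 was lost with the length offset, at −0.14 (adjusted p = 0.0728), and that of MT-CYB without sh1-TUG1 replicate 2 or sh2-TUG1 replicate 3.

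In complex IV, 2 assembly factors for MT-CO2 went apart, with COX20 higher (0.58) and COX18 lower (−0.56) in sh2-TUG1. In complex V, sh2-TUG1 was lower for ATP5ME (−0.71), ATP5MC1 (−0.53), ATP5MC2 (−0.46), ATP5MC3 (−0.27), ATP5F1A (−0.23) and ATP5F1B (−0.22). The call of ATP5ME was lost with the length offset, at −0.50 (adjusted p = 0.110), and without sh1-TUG1 replicate 2, sh2-TUG1 replicate 2 or sh2-TUG1 replicate 3. The coactivator PPARGC1A was higher (0.54). Transcript length moved with this comparison too, since nuclear genes outside the list with transcripts under 1000 bases had a median of −0.12 between the lines and those of 4000 bases or more 0.049. With the length offset, 25 of the 42 lower nuclear members remained lower.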

How the results depend on the processing

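The medians of the mitochondrial members against the control stayed below 0 under each alternative run, and no mitochondrial gene was called higher in either line. Size factors of DESeq2, TMM factors without the mitochondrial genes, and other filters on low counts left the counts of members called within 1.5 times of those given. With the transcript length offset, 5 mitochondrial members were lower in sh2-TUG1 with a median of −0.23, 17 nuclear members were higher and 15 lower with a median of 0.023, and between the lines 5 mitochondrial and 8 nuclear members were higher and 25 nuclear members lower, with a nuclear median of −0.072. With library size alone, 1 nuclear member was lower in sh1-TUG1 with a median of 0.13, and 1 was higher between the lines. With DESeq2, 2 mitochondrial members were higher between the lines. Over rows with an Ensembl identifier, the nuclear members took 0.730% of the counts in sh1-TUG1. Without the 49 nuclear members that overlap another gene or have a near-identical copy, an alternative chosen after seeing the data, 7 were higher and 1 lower in sh1-TUG1 with a median of 0.066, 4 were higher in sh2-TUG1, and 2 were higher and 24 lower between the lines. The share of all genes called is not given here for any alternative fit, so shifts of the members alone cannot be told from shifts of all genes. The cause of these shifts was not tested.

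Libraries of the same replicate number did not deviate together (r from −0.18 to 0.032 over genes with a mean log2 CPM over 3). Not every library correlated best with its own number, so the number was not taken to pair them. With a replicate block, sh1-TUG1 had 12 mitochondrial members lower, and sh2-TUG1 had 10. Among nuclear members, 12 were then higher and 1 lower in sh1-TUG1, 8 higher and 21 lower in sh2-TUG1, and 3 higher and 39 lower between the lines, where 1 mitochondrial member was lower. Named genes that lost their call with the block were COX5A, ATP5IF1 and SDHAF3 in sh1-TUG1, SDHB, NDUFA4L2, UQCRH and TFAM in sh2-TUG1, and NDUFAF6 between the lines. With the replicate block and the length offset, 4 mitochondrial members were lower in sh2-TUG1 with a median of −0.21, 14 nuclear members were higher and 14 lower with a median of 0.018, and between the lines 5 mitochondrial members were higher and 24 nuclear members lower with a nuclear median of −0.072.

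When 1 library was left out in turn, the mitochondrial median lay between −0.59 and −0.40 for sh1-TUG1 and between −0.47 and −0.19 for sh2-TUG1. Nuclear members higher in sh1-TUG1 numbered 9 to 22, with 22 without sh-Con replicate 1 and 9 without sh1-TUG1 replicate 2, and those lower 0 to 2, with a median of 0.067 to 0.12. Nuclear members lower in sh2-TUG1 numbered 17 to 30, and between the lines 0 to 3 mitochondrial and 1 to 5 nuclear members were higher.

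The named genes that changed sign under an alternative had not passed the test in the comparison where they did so. With the length offset the log2(fold change) was 0.010 for NDUFS3, 0.034 for SDHD and 0.091 for COX7A2 in sh2-TUG1, and 0.090 for MT-ND2, 0.091 for MT-CO2, 0.022 for SDHD, 0.028 for UQCRC1, 0.088 for COX4I1, 0.11 for COX6A1 and 0.025 for COX7A2 between the lines. With the replicate block and that offset it was 0.0057 for NRF1 in sh1-TUG1, and 0.0094 for NDUFS3, 0.042 for SDHD and 0.090 for COX7A2 in sh2-TUG1, and 0.10 for MT-ND2, 0.10 for MT-CO2, 0.022 for SDHD, 0.027 for UQCRC1, 0.088 for COX4I1, 0.12 for COX6A1 and 0.026 for COX7A2 between the lines, and with the replicate block alone 0.0011 for CYC1 and 0.0032 for NRF1 in sh1-TUG1. With library size alone it was 0.026 for CYC1 and 0.023 for NRF1 in sh1-TUG1, and −0.0040 for POLRMT in sh2-TUG1, and −0.029 for COX7A2L and −0.019 for NRF1 between the lines. Leaving out 1 library in turn gave, in sh1-TUG1, MT-ND3 from −0.074 to 0.23, SDHD from −0.10 to 0.11, NDUFA4 from −0.033 to 0.16, ATP5MC2 from −0.024 to 0.093, ATP5MC3 from −0.059 to 0.047, ATP5ME from −0.059 to 0.42, CYC1 from −0.064 to 0.043 and NRF1 from −0.11 to 0.076. It gave, in sh2-TUG1, SDHD from −0.15 to 0.063, NDUFA4 from −0.16 to 0.041, COX7A2 from −0.089 to 0.054, CYCS from −0.062 to 0.17 and NRF1 from −0.068 to 0.13. Between the lines it gave MT-ND2 from −0.091 to 0.032, MT-ND4 from −0.0045 to 0.13, SDHD from −0.10 to 0.028, UQCRC1 from −0.030 to 0.0025, UQCRFS1 from −0.10 to 0.0054, COX6A1 from −0.090 to 0.0038, COX19 from −0.048 to 0.020, NRF1 from −0.064 to 0.10 and POLRMT from −0.065 to 0.0061.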

Other observations

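Beside the complexes, 2 further lists of the pathway were counted, beside shares over all genes of 12.5% higher and 12.3% lower for sh1-TUG1, and of 21.6% and 21.9% for sh2-TUG1. Of 35 assembly factors outside the symbol rule, sh1-TUG1 had 5 higher and 2 lower, and sh2-TUG1 had 7 higher and 5 lower, by edgeR's quasi-likelihood test at an adjusted p under 0.05. Of 18 genes for cytochrome c, coenzyme Q and electron-transferring flavoproteins, sh1-TUG1 had 3 higher and 1 lower, and sh2-TUG1 had 5 higher and 4 lower. COQ8A, an atypical kinase required for coenzyme Q synthesis, had 44.5, 41.2 and 44.7 CPM in sh-Con, 73.6, 73.5 and 74.4 in sh1-TUG1 and 72.4, 71.1 and 65.8 in sh2-TUG1, and was the gene of the 4 lists past the DEG criteria upwards in both lines, with 0.76 (SE 0.054, adjusted p = 1.50e-05) and 0.68 (SE 0.062, adjusted p = 3.20e-05). CYC1, the nuclear-encoded cytochrome c1 of complex III, had −0.0012 (SE 0.062, adjusted p = 0.991) in sh1-TUG1 and −0.23 (SE 0.067, adjusted p = 0.0187) in sh2-TUG1. The call of CYC1 in sh2-TUG1 was lost with the length offset (adjusted p = 0.0921) and without sh-Con replicate 3, sh2-TUG1 replicate 2 or sh2-TUG1 replicate 3, with adjusted p of 0.0784, 0.0734 and 0.0561. CYCS, cytochrome c itself, had −0.10 (SE 0.11, adjusted p = 0.572) and 0.084 (SE 0.12, adjusted p = 0.613).

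ETFB and ETFDH, chosen after their values were seen, hand electrons from fatty acid oxidation to coenzyme Q and had opposite signs in sh2-TUG1. ETFB had −0.43 (SE 0.042, adjusted p = 1.15e-04) in sh1-TUG1 and −0.78 (SE 0.052, adjusted p = 4.90e-06) in sh2-TUG1, and ETFDH had 0.23 (SE 0.091, adjusted p = 0.0987) and 0.67 (SE 0.089, adjusted p = 2.93e-04). ETFB, in CPM, was 313, 326 and 311 in sh-Con, 228, 241 and 238 in sh1-TUG1 and 187, 193 and 174 in sh2-TUG1.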
